A study of Mus musculus with 12 samples.

Results

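Annexins, S100 proteins and galectin-1 were followed through 10 genes: Anxa1, Anxa2, Anxa3, Anxa5, Anxa6, S100a4, S100a6, S100a10, S100a11 and Lgals1. They were found as every probe of the deposited signal table whose platform symbol was one of these names, which gave 14 probes of 45281. Of these, 12 passed the detection filter, and all 10 genes were among the 10096 genes tested. The members lost by the filter were 2 of the 3 probes of Anxa6, which were above background on 2 arrays and on 1 array.

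Illumina mouse bead arrays measured total RNA of 4 cell groups, each on 3 arrays. The ESC group held embryonic stem cells from OG2 mice, labelled as a mixture of both sexes, and MEF were embryonic fibroblasts from male OG2 mice. The male iPS4F cells were induced pluripotent stem cells made with Oct4, Sox2, Klf4 and c-myc. The male iPS6F cells were made with the same 4 factors plus Brg1 and Baf155, subunits of the BAF chromatin-remodelling complex, whose effect on reprogramming the study addressed. The labels do not name clones, passages or separate cultures, and the design text speaks of 4 samples run in triplicate, so p-values measure the spread between arrays, which may be technical. ESC differed from the other groups in sex as labelled, and sex and cell type cannot be told apart in comparisons with ESC.

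Annexins are cytosolic proteins that bind acidic membrane phospholipids when calcium rises. S100 proteins are small calcium sensors of the EF-hand family that work mostly as dimers, and several of them clasp an annexin: S100a10 binds annexin A2, and S100a11 binds annexin A1. Galectin-1, the product of Lgals1, is a lectin that binds beta-galactosides on surface and matrix glycoproteins. All 3 groups are known as abundant products of fibroblasts and other adherent mesenchymal cells.

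The mean raw intensity ran from 138.9 to 236.7 over the 12 arrays, and 14107 to 17741 probes were above background, with the lowest values on ESC array 2 and the highest on iPS4F array 1. Arrays of a group correlated at 0.990 to 0.995 across genes. The labelled cell types were checked against their markers. All 10 fibroblast markers were detected on all 3 MEF arrays, against 1 in ESC, 4 in iPS4F and 3 in iPS6F. Averaged over the list, the log2 level of an array was 9.84 to 9.98 for MEF and 4.61 to 4.68 for ESC, and 4.81 to 4.92 and 4.76 to 4.87 for iPS4F and iPS6F. Of these, Col1a1, Col3a1 and Pdgfrb were undetected on all 9 pluripotent arrays. All 10 pluripotency markers were detected on every ESC, iPS4F and iPS6F array, and 1 of them on all MEF arrays. Of 11 macrophage markers with a probe, 10 were detected on all MEF arrays, none in ESC or iPS4F and 1 in iPS6F. Their mean level per array was 5.99 to 6.03 in MEF and 4.17 to 4.30 elsewhere. Macrophages are known to carry several annexins and S100 proteins, and the part of such cells in the MEF levels below was not tested.

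The 250 bases upstream of the transcription start (build GRCm38.p6) were available here for 6 of the 10 genes: Anxa1, Anxa2, Anxa5, S100a4, S100a6 and S100a11. The windows of 3 genes are printed 5′ to 3′ on the gene's strand, Anxa2 and S100a11 because they were the members at least 2-fold above ESC in both iPS lines, and Anxa1 because it was below detection in all pluripotent cells. They were chosen after these values were seen. Anxa2 lies at chr9:69453433-69453682 on the plus strand, S100a11 at chr3:93520246-93520495 on the plus strand and Anxa1 at chr19:20390672-20390921 on the minus strand. Capitals mark matches on either strand to AP-1 (TGANTCA), the GC box (GGGCGG), the TATA box (TATAAA), the octamer (ATGCAAAT) and the E-box (CACGTG), and no match overlapped another.
Anxa2: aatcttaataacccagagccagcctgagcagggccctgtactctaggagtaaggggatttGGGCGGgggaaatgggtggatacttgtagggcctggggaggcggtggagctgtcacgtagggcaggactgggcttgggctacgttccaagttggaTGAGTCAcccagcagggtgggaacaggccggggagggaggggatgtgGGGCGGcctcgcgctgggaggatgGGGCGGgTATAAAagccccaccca
S100a11: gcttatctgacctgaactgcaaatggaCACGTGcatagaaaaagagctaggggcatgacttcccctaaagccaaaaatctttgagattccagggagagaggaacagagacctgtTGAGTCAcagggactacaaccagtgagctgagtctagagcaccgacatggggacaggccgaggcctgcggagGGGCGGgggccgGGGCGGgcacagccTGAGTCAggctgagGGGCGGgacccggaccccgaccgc
Anxa1: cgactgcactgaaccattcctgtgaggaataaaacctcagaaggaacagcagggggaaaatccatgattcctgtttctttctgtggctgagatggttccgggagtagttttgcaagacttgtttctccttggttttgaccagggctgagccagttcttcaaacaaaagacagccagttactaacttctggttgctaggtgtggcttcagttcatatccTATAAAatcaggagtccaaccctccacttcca
The Anxa2 window held 1 AP-1 match, 3 GC boxes and 1 TATA box. The S100a11 window held 2 AP-1 matches, 3 GC boxes and 1 E-box, and the Anxa1 window held a TATA box. AP-1 is the motif of Fos and Jun family factors, and the GC box is that of Sp1. Among 32851 upstream windows of the same length, 6.75% held an AP-1 match, 32.7% a GC box, 12.4% a TATA box, 6.02% an E-box and 1.60% an octamer. Both AP-1 and GC box were in 1.16% of the windows and in 2 of the 6 member windows, Anxa2 and S100a11. S100a4 had a TATA box, and Anxa5 and S100a6 had none of the 5 motifs, although Anxa5 was also above ESC in both iPS lines. Nothing is drawn from these matches. The CpG count was 9 in Anxa2, 11 in S100a11, 13 in Anxa5 and 2 in Anxa1, beside a median of 6 over all windows.

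**Figure D1:**
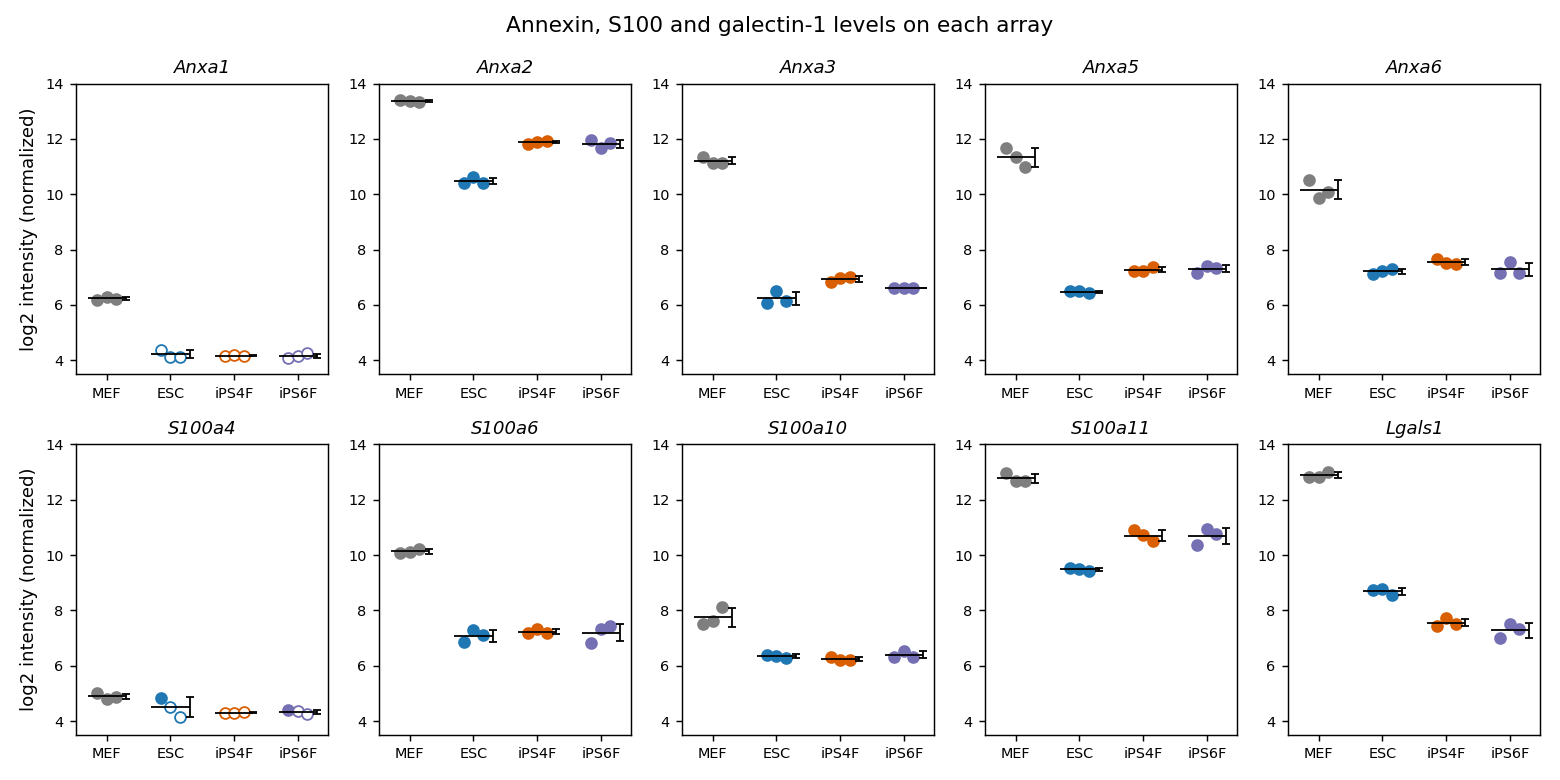
Normalized log2 intensity (vertical axis) of the 10 genes on each of 3 arrays of MEF, ESC, iPS4F and iPS6F. Filled points are detected, open points are not above background, lines are group means and bars are SD. MEF was highest for every gene. Anxa2 averaged 13.37, 10.49, 11.88 and 11.84 in that order of groups, and Lgals1 averaged 12.88, 8.69, 7.56 and 7.27 in the same order.

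The 8 members detected on all 12 arrays were lower than in MEF in each kind of pluripotent cell. Anxa1 and S100a4 were called lower too, but they entered the test through the MEF arrays alone, so the filter partly set their direction and they are no support for it. In the fit across all genes (limma, Benjamini-Hochberg adjusted p under 0.05), 8 of those 8 passed as lower in ESC, where 36.3% of the genes tested did. In iPS4F and in iPS6F 8 of 8 also passed as lower, beside 39.1% and 39.4% of all genes. The median log2 difference of the 8 from MEF was -3.17 in ESC, -2.75 in iPS4F and -2.90 in iPS6F, beside medians over all genes of 0.08, 0.04 and 0.03. Over all genes, those called higher than MEF made up 40.3%, 39.8% and 39.2%. Among 5982 genes with a detection p under 0.01 on all 12 arrays, the medians were 0.23, 0.13 and 0.12. There 79.8%, 79.9% and 80.5% were called, and 59.4%, 55% and 54.3% of the called genes were higher. The members were chosen with earlier results of these data known, so their counts are descriptions. The 3 comparisons share the MEF arrays. In bulk RNA, fewer cells of a type and less RNA per cell cannot be told apart.

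Anxa3 and Anxa5 fell furthest among the annexins. Anxa5, whose product binds phosphatidylserine, was at 11.66, 11.36 and 10.97 on the log2 scale on the MEF arrays and at 6.51, 6.50 and 6.44 on the ESC arrays. It was at 7.22, 7.22 and 7.38 in iPS4F and at 7.17, 7.41 and 7.35 in iPS6F. No pluripotent array came near a MEF array, and every iPS array lay above every ESC array. The log2 difference from MEF was -4.85 ± 0.14 (SE) in ESC, a 28.8-fold lower intensity, with an adjusted p of 6.22e-15. It was -4.06 ± 0.14 in iPS4F and -4.02 ± 0.14 in iPS6F, or 16.7- and 16.2-fold. Anxa3, an annexin of neutrophil granules and of several epithelia, was at 11.36, 11.14 and 11.15 in MEF and at 6.08, 6.51 and 6.13 in ESC. It was at 6.82, 6.97 and 7.02 in iPS4F and at 6.61, 6.60 and 6.60 in iPS6F. Here too all iPS arrays lay above all ESC arrays, and the iPS6F arrays lay below the iPS4F arrays. The fold below MEF was 31.5 in ESC, 19.4 in iPS4F and 24.4 in iPS6F. Such separations of arrays, here and for the genes below, are descriptions. The iPS6F arrays lay below the iPS4F arrays for 10.4% of all genes. The share separated from ESC is not given here, but 42.7% (iPS4F) and 45.8% (iPS6F) of all genes were called against ESC.

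Anxa2, the partner of S100a10 and a plasminogen and actin-binding annexin, fell less. It was at 13.41, 13.35 and 13.34 on the MEF arrays and at 10.42, 10.62 and 10.43 on the ESC arrays. The iPS4F arrays gave 11.83, 11.89 and 11.92 and the iPS6F arrays 11.97, 11.68 and 11.86. The iPS groups overlapped each other and lay between ESC and MEF with no overlap with either. The log2 difference from MEF was -2.88 ± 0.11 in ESC (7.35-fold lower, adjusted p 1.42e-13). It was -1.49 ± 0.11 in iPS4F and -1.53 ± 0.11 in iPS6F, folds of 2.80 and 2.89. When arrays were scaled by their medians instead of being quantile-normalized, the iPS4F difference was -0.91, still past the threshold. The median over all genes was then 0.24.

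Anxa6, an annexin with a doubled core that associates with endosomal and plasma membranes, was at 10.53, 9.86 and 10.08 in MEF. It was at 7.11, 7.21 and 7.32 in ESC, 7.68, 7.51 and 7.49 in iPS4F, and 7.15, 7.56 and 7.16 in iPS6F. The pluripotent groups stood close together, 7.70-fold (ESC), 6.06-fold (iPS4F) and 7.31-fold (iPS6F) below MEF. Anxa1, an annexin with anti-inflammatory action through formyl peptide receptors, was detected on the 3 MEF arrays only. Those gave 6.19, 6.31 and 6.23, and the 9 pluripotent arrays ranged from 4.10 to 4.39. Because it was not above background there, only a bound can be given: at least 3.42-fold lower in ESC, 3.70-fold in iPS4F and 3.60-fold in iPS6F (adjusted p 1.16e-11, 7.76e-12 and 7.86e-12). These bounds set the MEF mean against the lowest signal among detected probes on each array, or the gene's own value where higher. The fitted Anxa1 difference of ESC from MEF was -0.83 without background correction and -4.91 in the authors' log2 values, so its size rests on the background step.

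Among the S100 genes, S100a11 and S100a6 fell most. S100a11 was at 12.95, 12.67 and 12.68 in MEF and at 9.54, 9.50 and 9.42 in ESC. It was at 10.89, 10.72 and 10.51 in iPS4F and at 10.38, 10.94 and 10.75 in iPS6F. As with Anxa2, the iPS arrays overlapped each other and lay above every ESC array and below every MEF array. The log2 difference from MEF was -3.28 ± 0.14 in ESC (9.74-fold lower, adjusted p 1.19e-12), -2.07 ± 0.14 in iPS4F and -2.08 ± 0.14 in iPS6F. S100a6, calcyclin, was at 10.06, 10.11 and 10.22 in MEF and at 6.84, 7.29 and 7.11 in ESC. It was at 7.19, 7.33 and 7.17 in iPS4F and at 6.83, 7.33 and 7.42 in iPS6F. The 3 pluripotent groups overlapped, and they lay 8.29-fold (ESC), 7.45-fold (iPS4F) and 7.64-fold (iPS6F) below MEF.

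S100a10, which has lost calcium binding and holds annexin A2 at the membrane, was lower than MEF in each pluripotent group. It was at 7.50, 7.61 and 8.14 in MEF and at 6.40, 6.36 and 6.27 in ESC. It was at 6.33, 6.19 and 6.21 in iPS4F and at 6.32, 6.54 and 6.33 in iPS6F. The folds below MEF were 2.65, 2.84 and 2.56 in ESC, iPS4F and iPS6F, so that Anxa2 and its partner S100a10 did not have the same pattern over the groups: the iPS arrays lay above ESC for Anxa2 and overlapped ESC for S100a10. S100a4, a protein tied to motile and mesenchymal cells, was close to background throughout. It was at 5.0015, 4.81 and 4.86 in MEF, at 4.84, 4.52 and 4.14 in ESC, at 4.29, 4.30 and 4.32 in iPS4F, and at 4.40, 4.36 and 4.24 in iPS6F, and was detected on 5 arrays: 3 of MEF, 1 of ESC and 1 of iPS6F. ESC array 1 reached the MEF range, so those groups overlapped. The fitted difference of ESC from MEF was -0.39 ± 0.14 (adjusted p 0.0184). The call was lost without ESC array 3 (-0.22), without MEF array 1 (-0.34) and without background correction (-0.13). In iPS4F, where no array was above background, S100a4 was at least 1.45-fold lower than in MEF.

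Lgals1 fell further in the iPS lines than in ESC. It was at 12.8214, 12.8214 and 12.9997 in MEF and at 8.75, 8.77 and 8.54 in ESC. It was at 7.44, 7.72 and 7.52 in iPS4F and at 6.99, 7.50 and 7.33 in iPS6F. Every iPS array lay below every ESC array, and the 2 iPS groups overlapped. The log2 difference from MEF was -4.19 ± 0.13 in ESC, -5.32 ± 0.13 in iPS4F and -5.61 ± 0.13 in iPS6F, which are folds of 18.3, 39.9 and 48.8 (adjusted p 1.91e-14, 7.89e-16 and 4.01e-16).

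**Figure D2:**
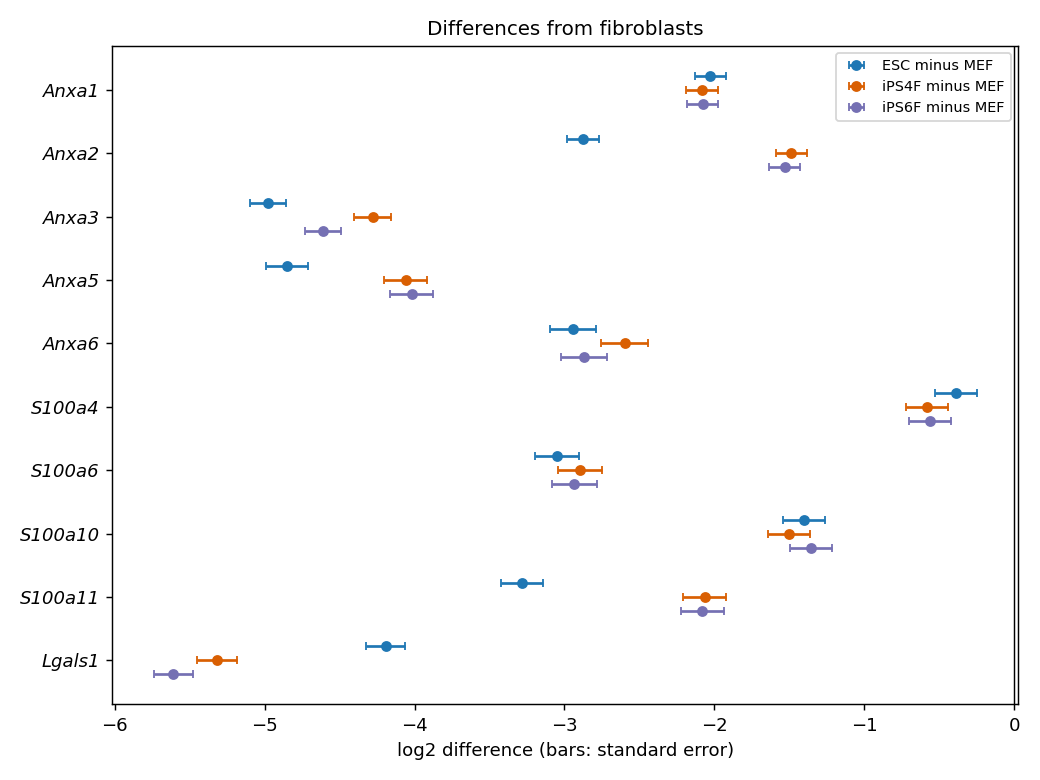
Log2 difference from MEF (horizontal axis) of the 10 genes in ESC, iPS4F and iPS6F, with bars of 1 SE of the fit. All points lie left of 0. For Anxa2 and S100a11 the iPS points (-1.49 and -1.53, -2.07 and -2.08) lie to the right of ESC (-2.88 and -3.28), and for Lgals1 they lie to the left (-5.32 and -5.61 beside -4.19).

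Against ESC, the comparison that asks where reprogrammed cells differ from the pluripotent reference, 4 genes were higher and 1 was lower in both iPS lines. Anxa2, Anxa3, Anxa5 and S100a11 were higher and Lgals1 was lower in iPS4F, beside 17.8% of all genes called higher and 24.9% called lower. The same 5 genes were called in the same directions in iPS6F, beside 17.8% and 28%. In either direction 5 of 10 passed, close to the 42.7% (iPS4F) and 45.8% (iPS6F) of all genes. The 2 comparisons share the ESC arrays.

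Anxa2 was 2.62-fold higher than ESC in iPS4F (log2 1.39 ± 0.11, adjusted p 5.33e-08) and 2.54-fold in iPS6F (1.35 ± 0.11, adjusted p 6.79e-08). S100a11 was 2.33-fold higher in iPS4F (1.22 ± 0.14, adjusted p 5.05e-06) and 2.30-fold in iPS6F (1.20 ± 0.14, adjusted p 4.52e-06). These were the members called and at least 2-fold above ESC, in both lines, beside 2.98% and 3.3% of all genes. Anxa5 was 1.73-fold higher in iPS4F (0.79 ± 0.14, adjusted p 0.000288) and 1.78-fold in iPS6F (0.83 ± 0.14, adjusted p 0.000167). Anxa3 was 1.62-fold higher in iPS4F (0.70 ± 0.12, adjusted p 0.000239) and 1.29-fold in iPS6F (0.37 ± 0.12, adjusted p 0.0217). The Anxa3 call in iPS6F was lost without ESC array 1 (0.28), without ESC array 3 (0.31) or without iPS6F array 3 (0.37).

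Lgals1 was 2.18-fold lower than ESC in iPS4F (-1.13 ± 0.13, adjusted p 5.82e-06) and 2.67-fold lower in iPS6F (-1.41 ± 0.13, adjusted p 4.32e-07), the 1 member at least 2-fold lower, beside 2.99% and 3.86% of all genes. With arrays scaled to their medians the iPS4F difference of Lgals1 was -0.44 and no longer passed, while the median over all genes moved to 0.39 in that comparison. Relative to that median it was -0.83. Under the same scaling Anxa2, Anxa3, Anxa5 and S100a11 were 2.00, 1.40, 1.48 and 1.87 above ESC in iPS4F. Those 4 values include the shift of 0.39 over all genes.

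The remaining 5 members did not pass against ESC in either line. For S100a6 the 95% interval of the log2 difference was -0.16 to 0.47 in iPS4F and -0.20 to 0.43 in iPS6F. For S100a10 it was -0.40 to 0.20 and -0.25 to 0.35. For Anxa6 it was 0.02 to 0.67 in iPS4F, with arrays that did not overlap and an adjusted p of 0.0834, and -0.25 to 0.40 in iPS6F. Anxa6 passed in iPS4F under median scaling (1.04), in the fit of iPS4F and ESC alone (0.35) and without MEF array 1 (0.35), and S100a6 passed there under median scaling (0.85). Relative to the median over all genes of 0.39 under that scaling, Anxa6 was 0.65 and S100a6 was 0.46. Anxa1 was below background in all 3 pluripotent groups, and S100a4 was detected on 1 ESC array, on none of iPS4F and on 1 of iPS6F, so neither gave a usable difference. S100a4 passed as lower than ESC in both lines without ESC array 3 (-0.38 in iPS4F and -0.36 in iPS6F).

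Some of the fibroblast markers were above ESC too, but most were not called. Against ESC, Fn1, the gene of fibronectin, was higher on the log2 scale by 1.62 ± 0.14 (iPS4F) and 1.92 ± 0.14 (iPS6F), and Thy1 by 0.76 ± 0.13 and 0.41 ± 0.13. The Thy1 call in iPS6F was lost without ESC array 3 (0.28), iPS6F array 1 (0.34) or iPS6F array 2 (0.39), with an offset of 50 (0.19) and without background correction (0.13). Of the 10 fibroblast markers 3 were called higher in iPS4F and 2 in iPS6F, beside 17.8% of all genes in each line. None was called lower, 7 and 8 were not called, and the median differences were 0.01 and -0.04. The third marker in iPS4F was Dcn, the gene of the matrix proteoglycan decorin, higher by 0.28 ± 0.11 (adjusted p 0.043) and detected on 2 iPS4F arrays but on no ESC or iPS6F array. Of the collagen genes, Col1a2 was detected on 1 iPS4F array, and Col1a1 and Col3a1 were not detected on any iPS array. Prrx1, another mesenchymal marker, was detected on no iPS array either. Other markers of the list were detected: Twist1 on 3 iPS4F, 3 iPS6F and 2 ESC arrays, and Pdgfra on 3, 2 and 2 in the same order. Of the macrophage markers none was called against ESC in either line. Among markers of other cells, the endothelial Pecam1 was above ESC by 1.63 ± 0.14 in iPS4F and 2.02 ± 0.14 in iPS6F. It was also detected on all 3 ESC arrays, at a mean of 5.95. The other 2 endothelial markers tested, Kdr and Tek, were not called against ESC in either line. The muscle gene Des was lower by 1.03 in iPS4F and 0.82 in iPS6F. Actc1, another muscle gene, was higher by 0.37 in iPS4F. The part of such cells in the differences of the members from ESC was not tested.

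**Figure D3:**
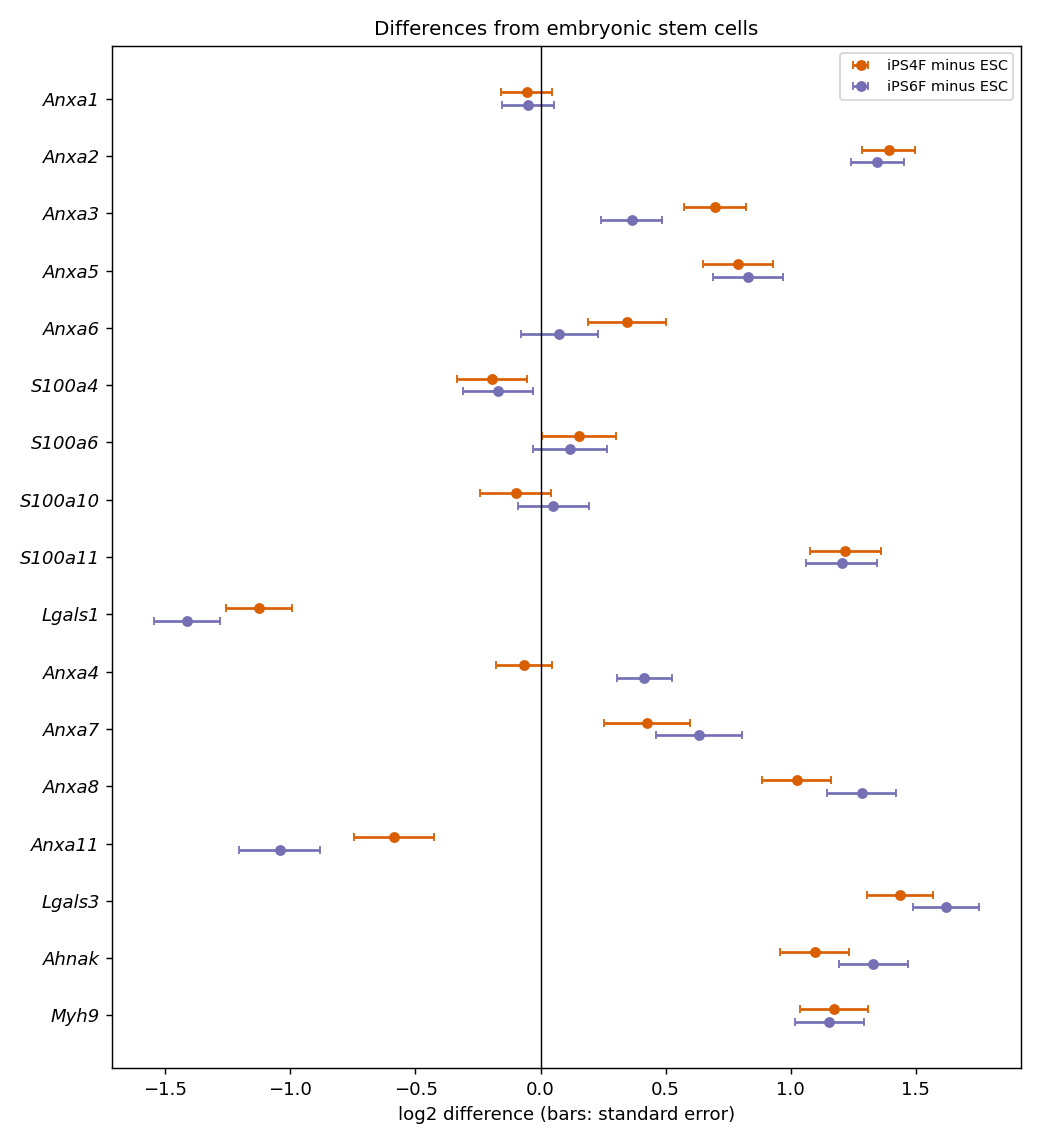
Log2 difference from ESC (horizontal axis) of the 10 genes, and of annexins, Lgals3, Ahnak and Myh9 from the lists of relatives and partners, in iPS4F and iPS6F, with bars of 1 SE of the fit. Anxa2 (1.39 and 1.35), S100a11 (1.22 and 1.20), Lgals3 (1.44 and 1.62), Ahnak (1.10 and 1.33), Myh9 (1.17 and 1.16) and Anxa8 (1.02 and 1.28) lie right of 0. Lgals1 (-1.13 and -1.41) and Anxa11 (-0.58 and -1.04) lie left. Under median scaling Anxa11 was at 0.13 in iPS4F, beside a median over all genes of 0.39.

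The share of the log2 difference from MEF to ESC that each iPS line had covered puts the members on a common footing. It was 51.6% for Anxa2 in iPS4F and 53.2% in iPS6F, and 62.9% and 63.4% for S100a11. Anxa5 had covered 83.7% and 82.9%, and Anxa3 86.0% and 92.7%. Anxa6 had covered 88.3% in iPS4F and 97.4% in iPS6F. S100a6 (94.9% and 96.2%) and S100a10 (107% and 96.4%) were near the ESC level in both lines. Lgals1 had gone past it, to 127% and 134%. Over the 1900 genes at least 2-fold lower in ESC than in MEF, the median share was 101% in iPS4F and 102% in iPS6F. The central 50% of those genes lay between 92% and 113% in iPS4F and between 93.5% and 116% in iPS6F. Of those genes, 4.16% had a smaller share than Anxa2 in iPS4F and 4.37% in iPS6F, and 6.74% and 7.05% had a smaller share than S100a11. For Lgals1, 87.2% and 89.1% had a smaller share. The figures moved when only the 971 such genes with a detection p under 0.01 on all 12 arrays were used. Smaller shares than Anxa2 were then held by 5.56% (iPS4F) and 5.97% (iPS6F), and than S100a11 by 9.58% and 10.4%. For Lgals1 they were 80.4% and 83.2%, and the median shares were 103.5% and 106.5%. Under median scaling the iPS4F share was 31.2% for Anxa2, 44.0% for S100a11 and 110% for Lgals1, with a median over genes of 85.3%, and 10.5%, 15.6% and 93.5% of genes had a smaller share. These shares are descriptions with no test, since they use the same arrays as the differences above.

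**Figure D4:**
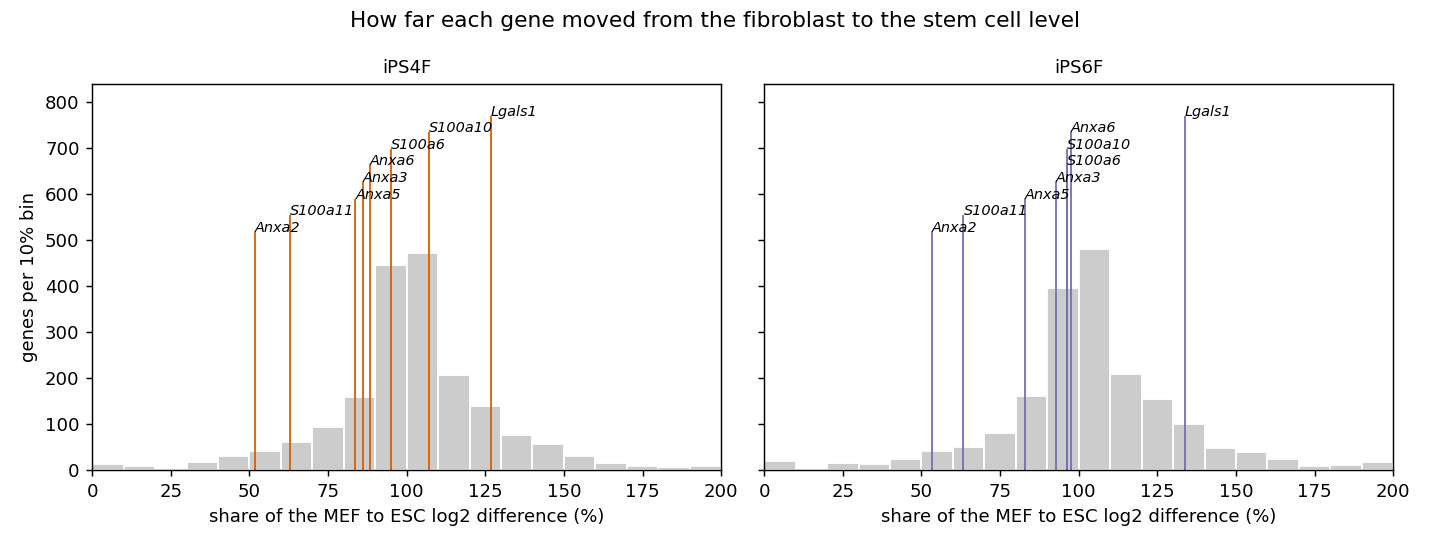
Number of genes (vertical axis, bins of 10%) by the share of the MEF to ESC log2 difference covered in iPS4F and in iPS6F, for 1900 genes at least 2-fold lower in ESC than MEF, with values below 0% or above 200% put in the end bins. Lines mark the 8 members detected on all 12 arrays. The bulk lies near the median of 101% and 102%, Anxa2 at 51.6% and 53.2%, S100a11 at 62.9% and 63.4%, and Lgals1 at 127% and 134%.

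Between the 2 iPS lines, the comparison that bears on adding Brg1 and Baf155, none of the 10 genes passed the limma test, beside 1.16% of all genes. At an unadjusted p under 0.05, 2 of 10 did, Anxa3 (p 0.0149) and Lgals1 (p 0.0452), beside 12.9% of all genes. Anxa3 was lower in iPS6F by a log2 of 0.33 (adjusted p 0.249), with arrays that did not overlap, as for 10.4% of all genes in that direction. Lgals1 was lower by 0.29 (adjusted p 0.378), with arrays that overlapped. For Anxa2 the 95% interval of the difference was -0.27 to 0.18, and for S100a11 it was -0.31 to 0.29. The widest departures the intervals of the 10 members allowed were -0.60, for Anxa6, and 0.45, for S100a10. This comparison is also the test of whether a member's distance from ESC or from MEF differed between the lines.

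A second kept probe was available for Anxa2 and Anxa3. The dimmer Anxa2 probe, matched to another transcript record, gave log2 differences from MEF of -1.71 in ESC, -1.11 in iPS4F and -0.82 in iPS6F. Against ESC it was higher by 0.60 (adjusted p 0.0134) and 0.89 (adjusted p 0.000792), the same directions as the brighter probe. The other Anxa3 probe gave -5.17, -4.58 and -4.93 from MEF. Against ESC it was higher by 0.59 in iPS4F (adjusted p 0.000464), and in iPS6F its difference of 0.25 did not pass (adjusted p 0.0846). These p-values were adjusted over 15294 probes. RefSeq lists pseudogenes named S100a11-ps and Lgals1-ps1, and whether their transcripts share the probes was not tested.

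The other annexins did not all move as the members did. Of 7 listed, 4 were tested, and in ESC 2 were higher and 2 lower than in MEF, beside 40.3% and 36.3% of all genes. In each iPS line 3 were higher than MEF and 1, Anxa4, was lower. Of all genes, 39.8% and 39.1% were higher and lower in iPS4F, and 39.2% and 39.4% in iPS6F. From MEF to iPS6F, the Anxa4 call was lost with the mean of its kept probes (-0.08) and the Anxa11 call under median scaling (0.60). Anxa11, whose product pairs with calcyclin, was at 6.43 ± 0.33 (SD, n = 3) in MEF and 8.23 ± 0.02 in ESC. The iPS4F arrays averaged 7.65 ± 0.27 and the iPS6F arrays 7.19 ± 0.17. It was higher in ESC than in MEF by 1.80 ± 0.16 (SE) and lower than ESC by 0.58 in iPS4F (adjusted p 0.0076) and by 1.04 in iPS6F (adjusted p 6.46e-05). Anxa8 was above its ESC level by 1.02 ± 0.14 in iPS4F and 1.28 ± 0.14 in iPS6F, with detection on 1 of 3 ESC arrays. Anxa7 was not above background in MEF and was at least 1.32-fold higher in ESC. Anxa4 fell by 0.88 from MEF to ESC and was the annexin that differed between the iPS lines, higher in iPS6F by 0.48 ± 0.11 (adjusted p 0.0462). That Anxa4 call held under 3 of 21 other settings and was lost without any single one of the 12 arrays, with values from 0.43 to 0.55 then. Under median scaling it was 0.14, beside a median over all genes of -0.29. With the mean of the kept probes of the gene it was 0.24 and the call was lost. Under median scaling Anxa11 was 0.13 above ESC in iPS4F, below the median over all genes of 0.39 there. Its call in iPS6F was lost under that scaling (-0.74). With the mean of the kept probes of a gene its call in iPS4F was lost (-0.22). The Anxa7 call in ESC was lost under median scaling (0.36), without ESC array 3 (0.39), with an offset of 50 (0.22) and without background correction (0.17).

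Of 12 other S100 genes listed, 4 passed the detection filter and were tested (S100a1, S100a8, S100a13 and S100a16). All 4 were called lower than MEF in each pluripotent group, beside 36.3% (ESC), 39.1% (iPS4F) and 39.4% (iPS6F) of all genes. None passed against ESC in either line. S100a8, detected on the 3 MEF arrays only, and S100a16, detected on those, 1 ESC array and 1 iPS4F array, entered the test through MEF alone, which partly set their direction. S100a13 had the largest drop from MEF to ESC of these, -1.85 ± 0.18, and S100a1 had -1.48 ± 0.18. Of the 16 S100 genes listed here, members included, 13 lie on mouse chromosome 3. There S100a4 and S100a6 sit in a run of S100 genes, and S100a11 is next to S100a10. The neighbours S100a11 and S100a10 differed in pattern, since S100a11 was above ESC in both iPS lines while S100a10 did not pass.

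Of 9 other galectin genes listed, that of the galectin-3 binding protein among them, 6 were tested. From MEF to ESC 4 were lower and 1 was higher, beside 36.3% and 40.3% of all genes. Lgals3, the gene of galectin-3, stood opposite to Lgals1 in the iPS lines. MEF averaged 9.70 ± 0.33 (SD) and ESC 8.64 ± 0.07, and the iPS4F and iPS6F arrays averaged 10.08 ± 0.03 and 10.26 ± 0.04. The difference from ESC was 1.44 ± 0.13 in iPS4F (adjusted p 4.63e-07) and 1.62 ± 0.13 in iPS6F (adjusted p 9.69e-08), and no other gene of the list passed against ESC. Lgals3bp was detected on all MEF arrays and on no pluripotent array, at least 9.15-fold lower in ESC. Lgals8, a galectin that binds damaged endomembranes, fell by 2.25 from MEF to ESC.

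Of 22 binding partners and receptors listed, 15 were tested. Relative to MEF, 10 were lower and 1 higher in ESC, and 11 were lower and 2 higher in each iPS line, with medians of -1.02, -1.04 and -1.09. Of all genes, 36.3%, 39.1% and 39.4% were called lower than MEF in ESC, iPS4F and iPS6F. Ahnak, a giant scaffold bound by the complex of annexin A2 and S100a10, was at 12.46 ± 0.14 in MEF and 7.40 ± 0.18 in ESC. It was at 8.50 ± 0.24 in iPS4F and 8.73 ± 0.15 in iPS6F. Ahnak was therefore 33.4-fold lower in ESC than in MEF, and above ESC by 1.10 ± 0.14 in iPS4F (adjusted p 1.11e-05) and 1.33 ± 0.14 in iPS6F (adjusted p 1.17e-06). Myh9, the non-muscle myosin heavy chain to which S100a4 binds, was above ESC by 1.17 ± 0.14 and 1.16 ± 0.14. Dlc1, whose product binds S100a10, was above ESC by 1.36 ± 0.11 and 1.32 ± 0.11. Those 3 genes, of 15 tested, were the partners called higher than ESC in both lines, beside 17.8% of all genes in each line. In each line 10 partners were not called and 2 were lower, Plgrkt and Dysf. Of all genes, 24.9% were lower in iPS4F and 28% in iPS6F. Under median scaling Plgrkt and Dysf lost their calls in both lines. In iPS4F they were then at 0.09 and 0.01, below the median over all genes of 0.39. Calls were also lost without single arrays, Plgrkt in iPS6F without ESC array 2 (-0.29) and Dysf in iPS4F without iPS4F array 3 (-0.28). Dysf was also lost in both lines with the mean of its kept probes (-0.12 and -0.17), and in iPS4F without background correction (-0.10). Plat, the tissue plasminogen activator, and Nrp1, a receptor reported to bind galectin-1, were not detected on any ESC array, at least 21.8- and 37.1-fold below MEF. Between the iPS lines no partner passed the limma test.

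The other EF-hand calcium sensors gave 7 tested of 9 listed, of which 4 were lower and 1 higher in each pluripotent group than in MEF. Of all genes, 36.3% (ESC), 39.1% (iPS4F) and 39.4% (iPS6F) were called lower than MEF. Capn2, a calpain, fell by 3.19 from MEF to ESC, and Gca, grancalcin, was higher in ESC by 1.40. Against ESC, Capns1, the calpain small subunit, was higher by 0.99 ± 0.17 (iPS4F) and 1.15 ± 0.17 (iPS6F). Calm3, a calmodulin gene, was higher by 0.69 ± 0.12 and 0.64 ± 0.12, and no sensor was lower. These were 2 of 7 sensors called higher in each line, beside 17.8% of all genes.

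The genes most like each member across arrays were named by Pearson's r, as a description. Over all 12 arrays the arrays fall into MEF and the rest, so any gene high in MEF alone scores near 1. Anxa1 was most like Tril (0.999), Anxa3 most like Lox (0.998), Anxa5 most like Itm2b (0.998) and Lgals1 most like Atraid (0.998). Between 820 and 1501 genes exceeded 0.95 for the members other than Anxa2, S100a11 and S100a4. For Anxa2 only 72 genes did, with Rassf1 the nearest (0.991), and for S100a11 130 did, with Ypel3 the nearest (0.989). S100a4, near background, had 1 such gene. Over the 9 pluripotent arrays, which again fall into ESC and iPS arrays, Anxa2 was most like Xlr4a (0.998), S100a11 most like Padi6 (0.991), Anxa5 most like Copz2 (0.995) and Lgals1 most like Tmem238 (0.993). Xlr4a was at 9.53 ± 0.15 in ESC and at 11.60 ± 0.02 and 11.57 ± 0.19 in iPS4F and iPS6F, and it was at 5.87 ± 0.02 in MEF, where Anxa2 was at its highest.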

How the data were processed

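Probe intensities from 12 Illumina mouse bead arrays were used, 3 for each group given by the sample titles. Per the file headers, the deposited table gives each probe's intensity and a detection p-value. The intensities ran from 64.1 to 21025.4 and were neither normalized nor log-transformed. The authors also deposited log2 values, whose columns ranked probes as the intensities did (Spearman correlation 1). These ran from -0.495 to 14.2 with a median of 1.16, so a shift of scale or background is unknown. The submitters' processing notes name BeadStudio 3.2, RMA and lumi without saying what each did. The sources used here give no genome build for the arrays, and the upstream windows are placed on build GRCm38.p6.

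Background correction from the detection p-values, addition of an offset of 16, quantile normalization and the log2 step were all done by neqc in limma 3.58.1 (R 4.3.3). The offset understates folds of dim probes. The platform annotation gave 1 symbol for 34885 of 45281 probes, several for 18 and none here for 10378, and only the first kind were named, with symbols as given there. Probes with a detection p under 0.05 on every array of 1 or more groups were kept, and the kept probe with the highest mean stood for its gene, which left 10096 genes. One model with a mean for each of 4 groups was fitted over 12 arrays (lmFit, eBayes), and 6 differences were tested, two-sided, with Benjamini-Hochberg adjustment over all genes within each difference and a threshold of 0.05. Levels are log2 intensities and differences are log2 ± SE unless SD is stated. The number of arrays limits the precision.

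The members and the gene lists (relatives, partners, EF-hand sensors, cell markers) were chosen with earlier results of these data known. Named genes were all members and, of each list, up to 4 genes of largest absolute difference past the threshold in a comparison, or 2 where fewer than 2 passed. For each member, the gene of highest correlation was added, over 12 arrays and, where detected, over the 9 pluripotent arrays. Scripts were tested on simulated data. Endothelial, keratinocyte and muscle markers were also checked. Of these, 3 of 6, 1 of 4 and 2 of 4 were tested, and their median log2 differences from MEF ran from -0.16 to 0.49. Pecam1 was higher than MEF by 1.72, 3.34 and 3.74 in ESC, iPS4F and iPS6F, and Kdr and Tek were not called against MEF. Krt14 and Actc1 were higher than MEF by 0.49 and 0.45 in iPS4F. Des was lower by 0.75 and 0.54 in iPS4F and iPS6F. Alternatives changed the offset, background step, normalization, detection filter, probe choice, arrays in the fit, replicate block and each single array.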

Additional observations from a re-analysis of the deposited data

Results flagged for a closer look

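Anxa4 was the annexin whose level differed between the 2 iPS lines in the test of that difference itself. It was at 5.84 ± 0.08 (SD, n = 3) in iPS4F and 6.32 ± 0.12 in iPS6F, beside 5.91 ± 0.11 in ESC and 6.79 ± 0.14 in MEF. The log2 difference of iPS6F from iPS4F was 0.48 ± 0.11 (SE), with a limma adjusted p of 0.0462, close to the threshold. Over 21 other settings the difference stayed above 0, from 0.14 to 0.68, and the adjusted p ran from 0.0372 to 0.655, under the threshold in 3 of them. The call was lost when any 1 of the 12 arrays was left out, and the size varied with the choice of probe. With the mean of the kept probes of Anxa4 the difference was 0.24 (limma adjusted p 0.273). In iPS6F against MEF that mean gave -0.08, beside -0.47 for the probe used. Groups of 3 arrays were too small for a test of single outlying arrays.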

How the results depend on the processing

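Over 60 member differences and 21 other settings, no difference that passed the test changed direction, and no difference from MEF did. The number of members called stayed at 8 to 10 for the comparisons with MEF, 5 or 6 for iPS4F against ESC, 4 or 5 for iPS6F against ESC and 0 between the iPS lines. The lower figure of 8 came from testing 8 members, with a detection p under 0.01 required on all 12 arrays. All 12 member probes tested passed in ESC against MEF, where 71.6% of 15294 probes did in either direction. Under the other settings 9 to 12 passed, with 9 of 9 beside 78.1% of probes under that stricter filter. The 12 probes include those of Anxa1 and S100a4, as do the 10 members called against MEF. Both genes entered the test through the MEF arrays alone and are no support for the direction.

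The calls lost were S100a4 in ESC against MEF (limma adjusted p from 0.000929 to 0.134 over its settings), Lgals1 in iPS4F against ESC (from 2.35e-06 to 0.134) and Anxa3 in iPS6F against ESC (from 0.00274 to 0.0999). The first was lost without background correction or without ESC array 3 or MEF array 1, the second under median scaling, and the third without ESC array 1, ESC array 3 or iPS6F array 3. The cause was not tested.

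Values that turned sign had not passed. Leaving out each array in turn gave, for iPS4F against ESC, -0.10 to 0.0293 for Anxa1. For iPS6F against ESC it gave -0.0982 to 0.0348 for Anxa1, -0.0585 to 0.15 for Anxa6, -0.36 to 0.0019 for S100a4, -0.0011 to 0.30 for S100a6 and -0.0208 to 0.0882 for S100a10. For iPS6F against iPS4F it gave -0.0391 to 0.0382 for Anxa1, -0.11 to 0.0291 for Anxa2, -0.0107 to 0.11 for Anxa5, -0.0077 to 0.0728 for S100a4, -0.15 to 0.14 for S100a6 and -0.14 to 0.14 for S100a11. Median scaling turned S100a10 to 0.58 in iPS4F against ESC, and to -0.20 between the iPS lines, where Anxa5 was at -0.35. The medians over all genes were then 0.39 and -0.29. Between the lines Anxa1 was -0.0098 without background correction and -0.0395 in the authors' log2 values, and Anxa2 was 0.12 as a mean of its probes. The cause was not tested.

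Background handling set the size of the dimmest differences. From MEF, S100a4 was -0.16 in ESC with an offset of 50 and -1.38 in the authors' values, and -0.18 and -1.94 in iPS4F without background correction and in the authors' values. Anxa3 and Anxa5 in iPS4F against ESC were 0.42 and 0.52 without background correction.

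Over all genes, median scaling moved the median difference to -0.14 (ESC minus MEF), 0.24 (iPS4F minus MEF), 0.39 (iPS4F minus ESC) and -0.29 (iPS6F minus iPS4F). Called genes that were higher went from 52.6% to 37.9% in ESC against MEF, from 41.7% to 94.5% in iPS4F against ESC, from 38.9% to 76.5% in iPS6F against ESC and from 34.2% to 7.14% between the lines. The iPS6F against ESC comparison called 4625 genes and 2098 under median scaling, and ESC against MEF called 7728 and 4774 with the stricter detection filter, which tests fewer genes. Between the lines 117 genes were called, 42 to 126 under other settings and 43 to 191 without single arrays.

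Same-numbered arrays of different groups deviated from their group means with correlations of -0.18 to 0.14, and 3 of 18 such pairs exceeded 0.1. Their mean was 0.013, beside -0.0062 for arrays of other numbers, and 6 of 12 arrays correlated best with their own number. With 3 arrays a group and no chance level worked out, this check cannot exclude a pairing by replicate number. With the replicate number as a block, 10, 10, 10, 5, 5 and 0 members were called, and 12 probes, as without it. A slide block was not run because the columns used here name no slide. Signal over background limits Anxa1 and S100a4.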
